A study of Homo sapiens with 6 samples.

Results

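The epithelial-mesenchymal transition (EMT) genes examined here were 7 transcription factors that drive this programme, SNAI1, SNAI2, SNAI3, ZEB1, ZEB2, TWIST1 and TWIST2, and 3 markers of the mesenchymal state, VIM, FN1 and S100A4. They were chosen by symbol, and all 10 were found among the 15585 genes of the count table. RNA was sequenced from cells labelled as the U2OS line, which derives from a human osteosarcoma, at 48 h after siRNA transfection. The control group (siCTR) received control siRNA and the knockdown group (siLSD1) received siRNA against LSD1, with 3 libraries each and no other treatment named. The labels do not say whether the libraries of a group came from separate cultures, so the p-values measure the spread between these libraries, which may be technical. RNA was the only readout, in 1 cell line at 1 time point.

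In EMT, epithelial cells lose junctions and polarity and gain the cytoskeleton, matrix and motility of mesenchymal cells. The factors of the SNAIL, ZEB and TWIST families bind E-box motifs in promoters such as that of CDH1, which encodes E-cadherin, and recruit corepressor complexes there. LSD1, the demethylase encoded by KDM1A that removes methyl groups from H3K4me1 and H3K4me2, is bound by the N-terminal SNAG domain of SNAI1 and is part of the CoREST corepressor complex.

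The 6 libraries held between 12513511 and 13561344 counted reads. KDM1A had 6140, 6493 and 6573 reads with siCTR, against 1110, 1198 and 1246 with siLSD1. Its log2 fold change was -2.44 (SE 0.11), with an adjusted p of 2.27e-07 (edgeR, quasi-likelihood F-test, Benjamini-Hochberg procedure over 11844 genes tested). That test and adjustment stand behind each adjusted p given without another name, and adjusted p under 0.05 was the threshold. Of all genes tested, 127 (1.07%) were higher and 44 (0.371%) were lower in siLSD1 libraries. With a correction for the GC content and length of transcripts, 582 of 11749 genes (4.95%) were higher and 390 (3.32%) lower. The libraries differed in their GC trend, the Spearman correlation over genes of a library's deviation from the mean with GC content. It was 0.418, -0.0263 and -0.199 in siCTR replicates 1 to 3, and 0.563, 0.0322 and -0.591 in siLSD1 replicates 1 to 3. The trend thus fell with replicate number in both groups, and siLSD1 libraries had both extremes. Among osteoblast markers, ALPL had 4162 to 5411 reads, whereas RUNX2 had 0 to 4, SP7 0 to 3 and SPARC 0 to 3, and none of the 3 markers tested was called by edgeR, nor at an unadjusted p under 0.05. COL1A1 had 122 to 200 reads, and of 9 markers listed for the line 7 had counts and 3 were tested. Of epithelial genes, KRT8, KRT18, JUP (5030 to 5685 reads), DSP (3109 to 5104) and MUC1 (1802 to 3997) were abundant, while EPCAM had 28 to 41 reads and OCLN 0 to 2. These markers put the label of the cell line in doubt but do not settle it, as other genes were mixed. Mesenchymal VIM had 9487 to 11615 reads, CALD1 6922 to 7878 and CDH2 585 to 781, whereas ACTA2 and VCAN had at most 3 and 1. Of epithelial regulators, GRHL2 and EHF had at most 5 and 2 reads, whereas ESRP2 had 1117 to 1493. No reference profile of the line was compared, and the libraries are taken as labelled. PTPRC, a marker of blood cells, had at most 1 read, and the endothelial markers PECAM1 and VWF had at most 3 and from 63 to 161.

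Of the 10 EMT genes, FN1 was the only one to pass the threshold, and it was higher in siLSD1 libraries. S100A4 and TWIST2 lay below all 3 siCTR libraries in all 3 siLSD1 libraries, without passing the threshold. The other 7 genes overlapped between the groups, and their log2 fold changes lay between -0.06 and 0.47. The median log2 fold change of the 10 genes was -0.01, as was that of all genes tested. At an unadjusted p under 0.05, 1 EMT gene was higher and 2 were lower, against 7.48% of all tested genes higher and 6.55% lower. The groups did not overlap in CPM for 1 gene higher in siLSD1 and for 2 genes lower, against 11.4% and 9.97% of all tested genes. CPM are read counts scaled to library depth, here by the TMM method.

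**Figure D1:**
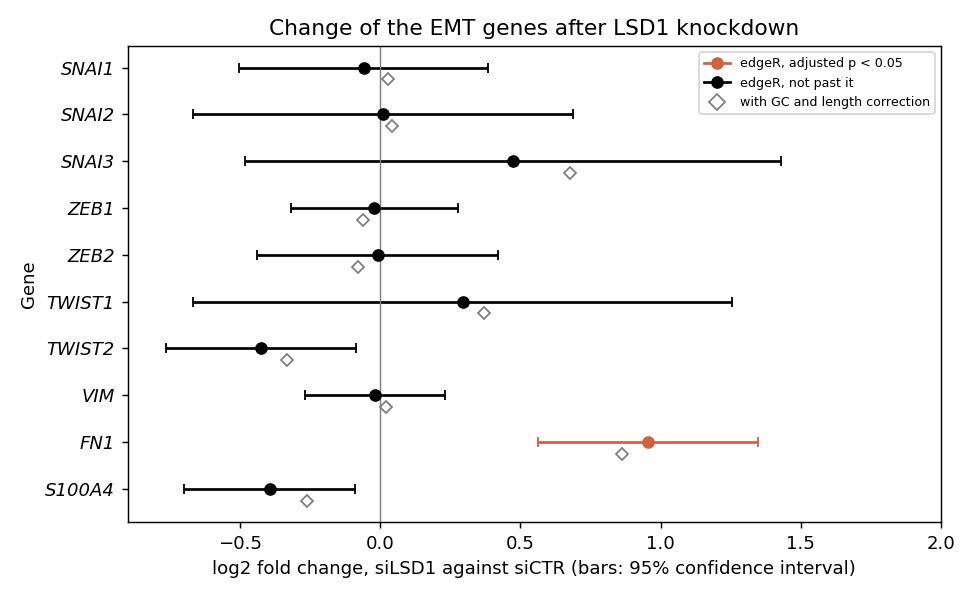
Log2 fold change of each EMT gene (x axis, siLSD1 against siCTR) from edgeR, with bars for the 95% confidence interval and open diamonds for the fit with GC and length correction. Only the interval of FN1 belongs to an adjusted p under 0.05, while those of S100A4 and TWIST2 lie below 0 and the other 7 span 0.

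FN1 encodes fibronectin, a matrix glycoprotein on which cells migrate and whose synthesis rises in EMT. The gene lies on the minus strand at chr2:215360440-215436073 (GRCh38). Its promoter is shown because FN1 was the gene that passed the threshold, and that of S100A4 as a marker gene whose window holds the CACCTG E-box. The sequences are bases before the transcription start that RefSeq gives, 5′ to 3′ on the gene's strand (GRCh38.p14), at chr2:215436074-215436318 for FN1 and chr1:153545807-153546056 for S100A4. The RefSeq start of S100A4 lies inside the longer span that GENCODE gives this gene, and the last bases before the RefSeq start of FN1 are left out because they lie in the first GENCODE exon. Capitals mark TGACGTCA and GGGCGG in FN1 and CACCTG in S100A4.
FN1: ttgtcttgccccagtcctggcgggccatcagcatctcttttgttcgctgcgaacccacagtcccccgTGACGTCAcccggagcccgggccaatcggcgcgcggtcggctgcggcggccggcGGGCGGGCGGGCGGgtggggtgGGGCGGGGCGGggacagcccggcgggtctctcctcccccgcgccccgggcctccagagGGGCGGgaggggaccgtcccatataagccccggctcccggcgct
S100A4: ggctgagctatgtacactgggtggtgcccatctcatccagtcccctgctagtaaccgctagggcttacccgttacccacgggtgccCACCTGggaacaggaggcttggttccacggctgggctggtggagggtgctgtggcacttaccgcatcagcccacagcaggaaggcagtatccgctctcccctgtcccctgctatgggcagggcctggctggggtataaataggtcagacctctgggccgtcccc
The search covered 250 bases before each start and both strands. TGACGTCA, the cAMP response element, starts 183 bases before the RefSeq start of FN1 and is found in 1.65% of 35116 promoters of that length. GGGCGG, the GC box, matches 6 times in FN1, with some matches overlapping, and at least once in 42.6% of promoters. CACCTG, the E-box form bound by SNAIL and ZEB factors, is absent from this FN1 window, as is the broader CANNTG, which includes it. In S100A4, CACCTG starts 164 bases before the RefSeq start, and it also occurs in 2 of the promoters of ZEB1. CACCTG is found in 17.5% and CANNTG in 61.8% of promoters. RefSeq promoters were matched for 6 of the 10 genes. The CANNTG motif occurs once in that of ZEB2, once in that of S100A4, and in 4 of the 7 listed for ZEB1, and not in those of FN1, TWIST2 and VIM.

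FN1 was covered by 382, 238 and 433 reads with siCTR, and by 640, 609 and 794 with siLSD1. Each siLSD1 library was above each siCTR library, and siCTR replicate 2 was the lowest of all. The mean CPM was 26.7 ± 7.22 (SD, n = 3) in siCTR and 51.8 ± 6.14 in siLSD1. FN1 rose 1.94-fold (95% confidence interval 1.48 to 2.55), a log2 fold change of 0.95 (SE 0.18), with an adjusted p of 0.0216 from edgeR. The call was lost without siLSD1 replicate 1 (adjusted p = 0.0505 from edgeR) and without siLSD1 replicate 3 (adjusted p = 0.0541 from edgeR). Without siCTR replicate 2 the log2 fold change was 0.75, with an adjusted p of 0.0450 from edgeR. A total count cannot tell a higher level in every cell from a larger share of cells with a high level.

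**Figure D2:**
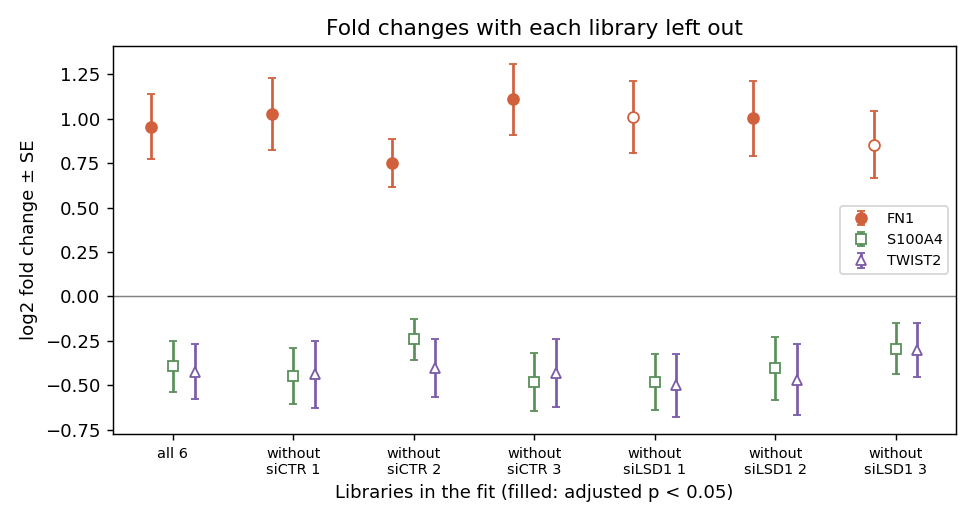
Log2 fold change ± SE (y axis) of FN1, S100A4 and TWIST2 with all 6 libraries and with each library left out (x axis). FN1 stays between 0.75 and 1.11 and loses its filled symbol (adjusted p under 0.05) without siLSD1 replicate 1 or 3, while S100A4 and TWIST2 stay below 0 with open symbols throughout.

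The genes whose pattern over the 6 libraries lay nearest to that of FN1 were TBC1D5, CLSTN2 and SYNE1. Nearness was the root mean square difference of mean-centred log2 CPM, which was 0.0810 for TBC1D5, 0.0984 for CLSTN2 and 0.118 for SYNE1, against a median of 0.591 over all genes tested. TBC1D5, which encodes a regulator of endosomal trafficking, had 329, 228 and 343 reads with siCTR, against 570, 528 and 678 with siLSD1. SYNE1, which encodes the nuclear envelope protein nesprin-1, had 1364, 747 and 1448 reads with siCTR, against 1926, 1840 and 2186 with siLSD1. As they were chosen by this pattern, all 3 genes shared with FN1 the low value in siCTR replicate 2 and the high value in siLSD1 replicate 3.

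S100A4 encodes a small calcium-binding protein that binds non-muscle myosin and is found in motile mesenchymal cells. S100A4 was covered by 2336, 2994 and 2292 reads with siCTR, and by 2214, 1892 and 1716 with siLSD1. After scaling for depth the groups did not overlap, with 170 CPM in the lowest siCTR library and 165 in the highest siLSD1 library. The log2 fold change was -0.39 (SE 0.14, 95% confidence interval -0.70 to -0.09), with an adjusted p of 0.223 from edgeR. With the GC and length correction the log2 fold change was -0.26, with an adjusted p of 0.0480 from edgeR. S100A4 was also called with a replicate block alone. Counting 1 gene higher and 1 lower under the correction, the EMT genes are read against 4.95% and 3.32% of all genes. S100A4 lies at chr1:153543613-153550136 (GRCh38, minus strand), and the annotated S100A3 overlaps it on the same strand. S100A3 had 68 to 88 reads per library. Its log2 fold change was 0.12, with an adjusted p of 0.820 from edgeR.

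TWIST2 and its paralog TWIST1 encode basic helix-loop-helix factors that act in mesoderm and repress CDH1. They lie at chr2:238848032-238910534 and chr7:19020991-19117636 (GRCh38). TWIST2 had 193, 200 and 202 reads with siCTR, against 167, 151 and 126 with siLSD1. The siCTR libraries lay close together and each siLSD1 library was below them, with siLSD1 replicate 3 the lowest. The log2 fold change of TWIST2 was -0.42 (SE 0.16, 95% confidence interval -0.76 to -0.08), with an adjusted p of 0.238 from edgeR. With the GC and length correction it was -0.33, with an adjusted p of 0.121 from edgeR.

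TWIST1 had 32, 14 and 9 reads with siCTR, against 32, 17 and 19 with siLSD1. Replicate 1 of each group was far above the other libraries. TWIST1 differed by 0.29 on the log2 scale (SE 0.44), with an interval of -0.67 to 1.26, and with 1 library left out this difference was lowest at -0.05 without siCTR replicate 3 and highest at 0.97 without siCTR replicate 1. The second counting that the authors deposited for the same libraries gave TWIST1 37, 30 and 21 reads with siCTR, against 39, 28 and 25 with siLSD1. Its total was 1.46 times that of the first counting, against a median of 1.11 over genes, and the ratio was 2.14 and 2.33 in siCTR replicates 2 and 3. In the second counting the log2 fold change was 0.06.

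**Figure D3:**
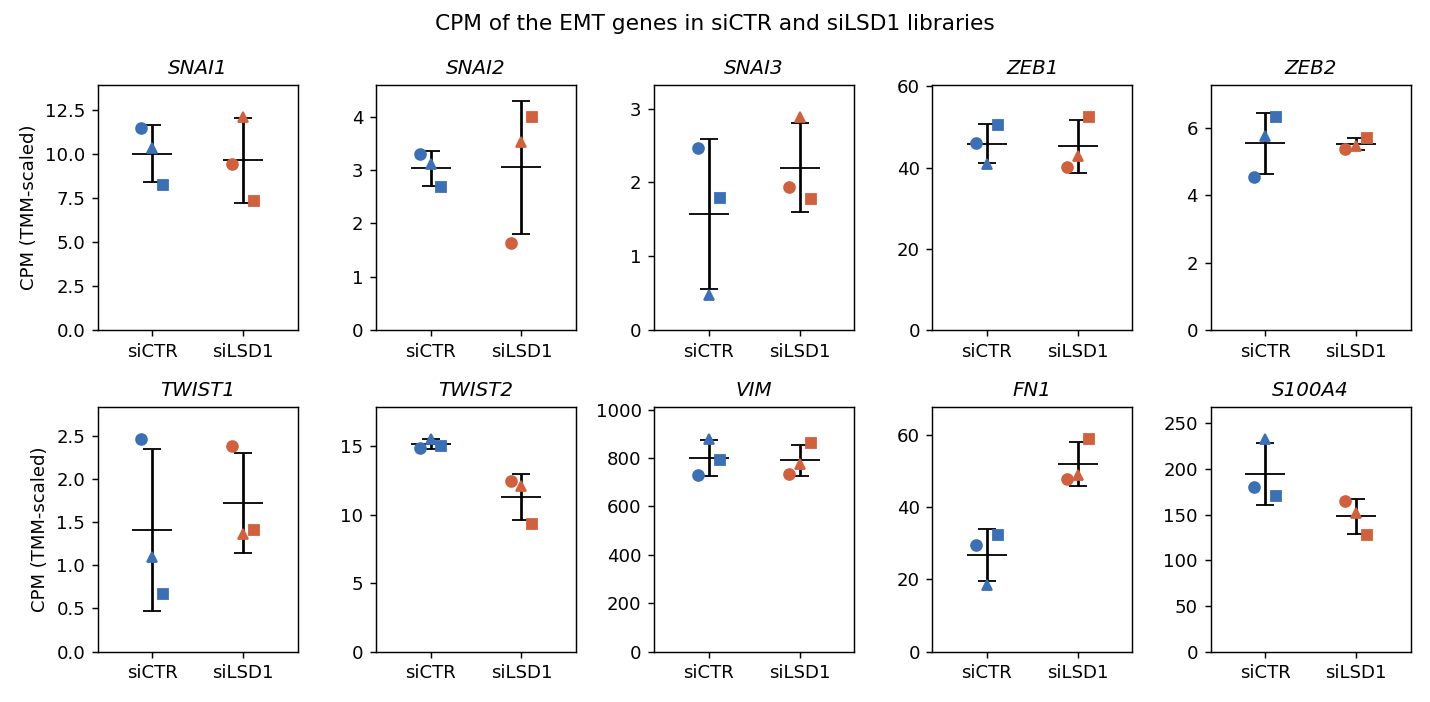
TMM-scaled CPM of the 10 EMT genes (y axis, starting at 0) in the siCTR and siLSD1 libraries, with circles, triangles and squares for replicates 1, 2 and 3 and black bars for the mean ± SD (n = 3). The groups separate upwards in FN1 and downwards in TWIST2 and S100A4, and overlap in the other 7 panels.

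The SNAIL family encodes zinc finger repressors with the SNAG domain. Its genes lie apart, SNAI1 at chr20:49982980-49988886, SNAI2 at chr8:48917598-48921740 and SNAI3 at chr16:88677688-88686507 (GRCh38). SNAI1, the founding member, had 149, 133 and 111 reads with siCTR, against 127, 151 and 99 with siLSD1. The groups overlapped, and the log2 fold change was -0.06 (SE 0.21), with an interval of -0.50 to 0.39 and an adjusted p of 0.921 from edgeR. SNAI2, which encodes SLUG and acts in neural crest migration, had 43, 40 and 36 reads with siCTR, against 22, 44 and 54 with siLSD1. The siLSD1 libraries held both the lowest and the highest value. SNAI2 had a log2 fold change of 0.01 (SE 0.31), with an interval of -0.67 to 0.69. SNAI3 had 32, 6 and 24 reads with siCTR, against 26, 36 and 24 with siLSD1, and siCTR replicate 2 was far below the other 5 libraries. SNAI3 had a log2 fold change of 0.47 (SE 0.44, interval -0.48 to 1.43), and without siCTR replicate 2 it was 0.05. The interval of SNAI2 does not exclude changes of 1.5-fold in either direction, nor that of SNAI3 a rise of this size.

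ZEB1 and ZEB2 encode repressors with zinc finger clusters at both ends and a homeodomain between them, and microRNAs of the miR-200 family act on both transcripts. They lie at chr10:31318495-31529814 and chr2:144364364-144521057 (GRCh38). ZEB1 had 597, 526 and 680 reads with siCTR, against 539, 535 and 708 with siLSD1. The values of the groups ran over the same range, and the log2 fold change was -0.02 (SE 0.14), with an interval of -0.32 to 0.28. ZEB2 had 59, 74 and 85 reads with siCTR, against 72, 68 and 77 with siLSD1, with a log2 fold change of -0.01 (SE 0.20) and an interval of -0.44 to 0.42. VIM, which encodes the intermediate filament protein of mesenchymal cells and lies at chr10:17228241-17237593, was the most abundant of the 10 genes. It had 9487, 11298 and 10655 reads with siCTR, against 9873, 9665 and 11615 with siLSD1. VIM had the narrowest interval, from -0.27 to 0.23 around a log2 fold change of -0.02, with an adjusted p of 0.959 from edgeR. Antisense or opposite-strand genes overlap SNAI2, SNAI3, ZEB1, ZEB2, TWIST1 and VIM in the annotation, and whether counting used strand is not given in the sources used here.

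Levels were compared between genes in FPKM, which are read counts scaled to gene length and library depth. VIM was highest at a mean of 426 FPKM over 6 libraries (range 395 to 464), followed by S100A4 at 207 (153 to 278), and their ranges did not overlap. ZEB1, TWIST2, SNAI1 and FN1 formed a middle group at 7.07, 7.04, 5.83 and 4.32 FPKM. Over all 6 libraries each of these overlapped with its neighbour in the order. Within siCTR, TWIST2 (7.99 to 8.18) lay above ZEB1 (6.27 to 7.86), and FN1 (2.01 to 3.54) lay below SNAI1 (4.90 to 6.87). In siLSD1 the mean of TWIST2, 6.02, was below that of ZEB1, 7.02. SNAI2, SNAI3, TWIST1 and ZEB2 were lowest, at 1.25, 1.09, 0.940 and 0.413 FPKM, and their ranges overlapped from each gene to the next. Gaps with no overlap separated S100A4 from ZEB1, by 29.3-fold, and FN1 from SNAI2, by 3.45-fold over all libraries. The second gap was narrower in siCTR, with means of 2.94 FPKM for FN1 and 1.25 for SNAI2, than in siLSD1, with 5.69 and 1.26. Within each family 1 member led, as ZEB1 did over ZEB2, TWIST2 over TWIST1 and SNAI1 over SNAI2.

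**Figure D4:**
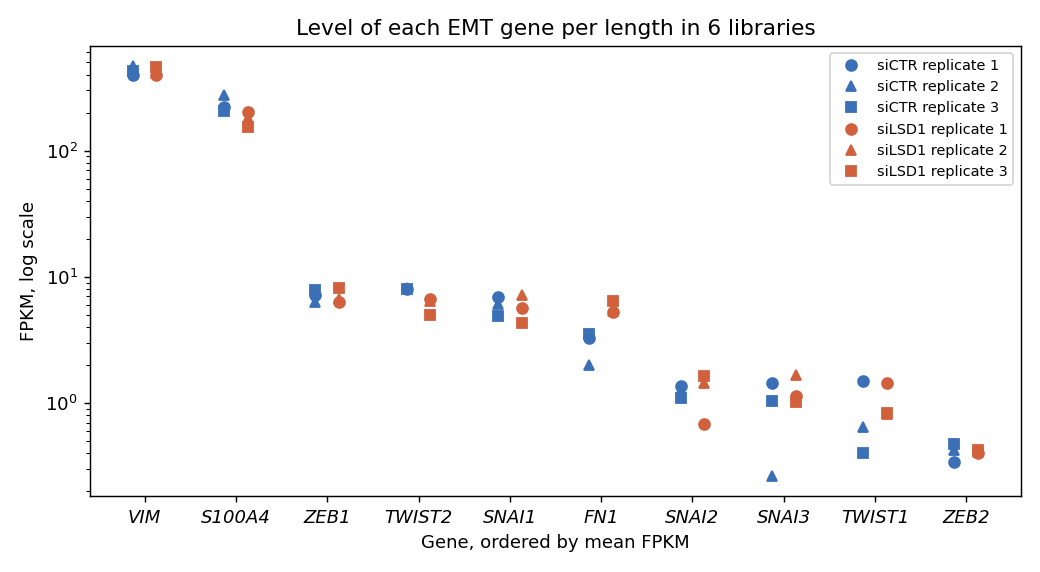
FPKM of each EMT gene (y axis, log scale) in 3 siCTR and 3 siLSD1 libraries, with the genes ordered by the mean over all 6. VIM and S100A4 lie above 150 FPKM in every library, and the 7 transcription factors and FN1 lie below 9.

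Other mesenchymal markers were measured beside the 10 genes. Of 22 listed, 19 had counts and 10 were tested, with 1 higher, none lower and a median log2 fold change of 0.14, beside 1.07% higher and 0.371% lower among all genes tested. PDGFRB, which encodes a receptor for platelet-derived growth factor in pericytes and fibroblasts, had 257, 158 and 242 reads with siCTR, against 505, 394 and 418 with siLSD1. It rose by a log2 fold change of 1.00 (SE 0.17), with an adjusted p of 0.0134 from edgeR that ran up to 0.0596 with 1 library left out, when siLSD1 replicate 1 was missing. Matrix and contractile genes of this list differed widely in their counts. ACTA2, SPARC, TNC, LUM, DCN, MMP2 and VCAN had at most 3 reads in any library, whereas COL1A1 had 122 to 200, TAGLN 58 to 100 and CALD1 6922 to 7878.

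Partners of the 3 markers included integrins and other fibronectin receptors, filament partners of VIM and targets of S100A4. Of 23 listed, 21 were tested, with 2 higher, none lower (1.07% and 0.371% of all genes) and a median log2 fold change of 0.14. SDC4, which encodes the fibronectin co-receptor syndecan-4, had 645, 700 and 684 reads with siCTR, against 1120, 1061 and 1222 with siLSD1. SDC4 rose by 0.74 on the log2 scale (SE 0.11, adjusted p = 0.00670 from edgeR), and its adjusted p with 1 library left out was at most 0.0437. TGM2, a transglutaminase that crosslinks fibronectin and binds it with integrins, rose from 118, 105 and 117 reads to 252, 179 and 204. Its log2 fold change was 0.89 (SE 0.16), with an adjusted p of 0.0160 from edgeR and up to 0.0739 with 1 library left out.

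CDH1, the target of the SNAIL, ZEB and TWIST repressors, had 95, 80 and 66 reads with siCTR, against 154, 117 and 143 with siLSD1. Each siLSD1 library was above each siCTR library. The log2 fold change was 0.77 (SE 0.19, interval 0.36 to 1.18), and the adjusted p of 0.0699 from edgeR missed the threshold. CDH1 passed in 5 of the 16 alternatives to this fit. Its adjusted p was 0.0285 with DESeq2. In edgeR it was 0.0264 with the GC and length correction, 0.0323 without a filter and 0.00299 with a replicate block. The adjusted p of CDH1 was 0.0761 with voom and 0.0869 in the second counting. With 1 library left out it ran from 0.0541 to 0.253 in edgeR and passed the threshold in none of these fits. The mean level of CDH1 was 1.24 FPKM in siCTR and 2.11 in siLSD1.

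Of 27 epithelial targets, CDH1 included, 20 were tested, with 1 higher, none lower (1.07% and 0.371% of all genes) and a median log2 fold change of -0.05. At an unadjusted p under 0.05, 3 were higher and 4 lower, against 7.48% and 6.55% of all genes, and the lower ones were CGN, KRT18, CLDN7 and MUC1, with log2 fold changes of -0.68, -0.32, -0.50 and -0.42. CLDN1, which encodes the tight junction protein claudin-1, had 834, 866 and 846 reads with siCTR, against 1232, 1331 and 1615 with siLSD1. CLDN1 rose by 0.71 on the log2 scale (SE 0.12, adjusted p = 0.0135 from edgeR), with an adjusted p of up to 0.0746 when 1 library was left out. The keratin genes KRT8 and KRT18 were abundant, with 21772 to 29212 and 10914 to 16655 reads.

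Of 12 regulators of the epithelial state, 6 were tested, with 1 higher, none lower (1.07% and 0.371% of all genes) and a median log2 fold change of -0.03. TP63, which encodes the p63 factor of basal epithelia, had 21, 21 and 23 reads with siCTR, against 59, 63 and 71 with siLSD1. The rise of TP63 was 2.95-fold (95% confidence interval 2.06 to 4.23), with an adjusted p of 0.00727 from edgeR and of at most 0.0374 with 1 library left out. Of 14 other EMT transcription factors, 9 were tested and none passed in edgeR, while at an unadjusted p under 0.05, 1 was higher and 1 lower, beside 7.48% and 6.55% of all genes tested. The nearest to the threshold were TCF3 (log2 fold change 0.40, adjusted p = 0.179 from edgeR), FOXC2 (-0.42, adjusted p = 0.276) and FOXQ1 (-0.27, adjusted p = 0.495).

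Of 24 genes of the corepressors that these factors recruit, 23 were tested and none passed in edgeR, with 1 higher and 3 lower at an unadjusted p under 0.05, to be read beside the same shares of all genes. Those with the smallest p-values were LIMD1 (log2 fold change -0.40, adjusted p = 0.126 from edgeR), CHD4 (-0.43, adjusted p = 0.209) and MTA1 (0.26, adjusted p = 0.316). DESeq2 and voom also called none of the other EMT factors or the corepressors. With the GC and length correction edgeR called 2 of each, TCF3 (adjusted p = 0.0015) and FOXC2 (0.0471), and LIMD1 (0.00492) and MTA1 (0.0265). These were 1 higher and 1 lower in each list, beside 4.95% higher and 3.32% lower among all genes under the correction. Of 22 genes that act on the turnover of the EMT factors, 21 were tested and none passed in edgeR, with 2 higher and 1 lower at an unadjusted p under 0.05, near those shares. The smallest p-values were those of LATS2 (log2 fold change 0.49, adjusted p = 0.108 from edgeR), STUB1 (-0.35, adjusted p = 0.186) and GSK3B (0.32, adjusted p = 0.186). DESeq2 called 1 of the turnover genes, beside 210 higher and 113 lower among all genes, and voom called none. The GC and length correction called 2 turnover genes and the replicate block 1. Of 6 other genes for SNAG-domain proteins, 4 had counts, with 0 to 4 reads per library, and none was tested.

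**Figure D5:**
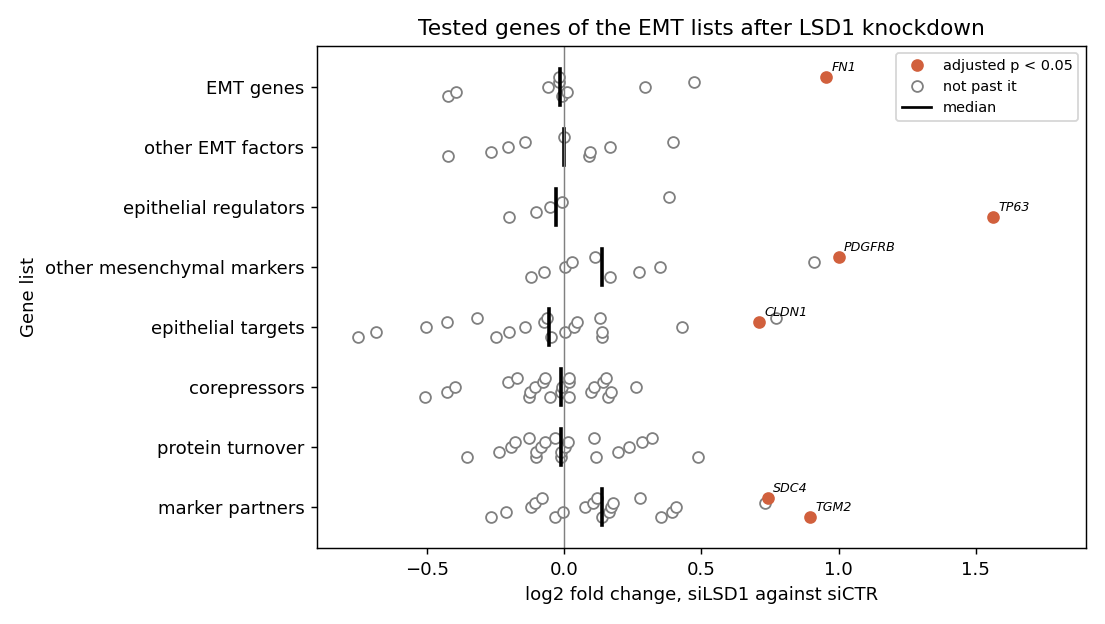
Log2 fold change (x axis, siLSD1 against siCTR) of each tested gene in the EMT genes and 7 related lists (y axis), filled where the adjusted p from edgeR was under 0.05, with a black bar at each median. The medians lie between -0.05 and 0.14, and the 6 filled genes all lie above 0.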

How the data were processed

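RNA-seq libraries labelled as U2OS cells were grouped by their labels into 3 siCTR and 3 siLSD1 libraries. Reads were aligned by the authors with STAR. The deposited counts are whole reads per gene, not normalized. The authors also deposited FPKM values, and a second counting in tables of library pairs. The fold changes and p-values of their own DESeq2 comparison, also deposited, were not used. The build, annotation, counter and strand setting are not given in the sources used here.

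Counts were fitted with edgeR 4.0.16 in R 4.3.3 (TMM, filterByExpr at a minimum count of 10, quasi-likelihood test, no covariates), and Benjamini-Hochberg adjustment covered 11844 genes, with a biological coefficient of variation of 12.6%. Pairs of libraries of 1 group differed by more than sampling noise (chi-square per degree of freedom of at least 6.46), and all 6 were kept as separate samples. The fit was tested on simulated counts that held no GC trend and no replicate structure, so that test does not cover these. Log2 CPM used a prior count of 2. Coordinates, GC content and transcript length came from GENCODE v44 (GRCh38) and promoter sequences from RefSeq, matched by symbol.

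The 10 genes and the gene lists were chosen with earlier results of these data known. A gene of the list of other mesenchymal markers is not reported here and was left out of its counts. Genes named are the 10 genes, KDM1A, CDH1, overlapping genes, those of each list with an adjusted p under 0.05 (otherwise the 3 smallest p), and the 3 nearest to FN1. The near-zero markers, the other matrix and contractile genes, ALPL, EPCAM, OCLN, KRT8, JUP, DSP, GRHL2, EHF, ESRP2 and the lower epithelial targets were named after their values were seen. Alternatives were DESeq2 1.42.0, voom in limma 3.58.1, other scaling and filters, a replicate block, a lowess correction (span 0.3) for GC content and length, the second counting, and each library left out.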

Additional observations from a re-analysis of the deposited data

How the results depend on the processing

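FN1 kept its direction in all 16 alternatives and its call in 14, and S100A4 and TWIST2 kept their direction in all 16. With 1 library left out, the log2 fold change ran from 0.75 to 1.11 for FN1, -0.48 to -0.24 for S100A4, -0.50 to -0.30 for TWIST2, -0.25 to 0.11 for SNAI1, -0.24 to 0.31 for SNAI2, 0.05 to 0.94 for SNAI3, -0.14 to 0.058 for ZEB1, -0.13 to 0.10 for ZEB2, -0.047 to 0.97 for TWIST1, -0.082 to 0.057 for VIM and -2.47 to -2.38 for KDM1A. The sign of SNAI1 turned with the GC and length correction (0.027) and the second counting (0.0060), that of VIM with the correction (0.023), and with voom those of SNAI2 (-0.085) and ZEB2 (0.0033), none past the threshold. With the correction S100A4 was called at -0.26. The cause of these changes was not tested.

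Genes called higher and lower were 127 and 44, and 210 and 113 with DESeq2, 188 and 102 without a filter, and 582 and 390 with the correction. They were 45 to 99 and 7 to 37 with 1 library left out. EMT genes called were 1, then 2 with the correction and 0 to 1 with 1 library left out. DESeq2 called 2 epithelial targets and 1 turnover gene, and 3 epithelial targets were called without a filter. The correction called 2 other EMT factors, 2 epithelial regulators, 5 epithelial targets, 2 corepressors, 2 turnover genes and 5 marker partners. Among all genes it called 4.95% higher and 3.32% lower. With 1 library left out, 0 to 1 mesenchymal markers, 0 to 2 epithelial targets and 1 to 2 marker partners were called.

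Replicate numbers were shared by the groups, but the deviations of same-numbered libraries correlated at 0.328, 0.0744 and 0.310, and no label says that a number marks a shared culture or day, although the authors set same-numbered libraries side by side in their pair tables. As a hint from the data, 6 of 6 libraries correlated best with their own number, and the GC trend fell with replicate number in both groups. A replicate block gave 489 higher and 408 lower genes, or 745 and 600 with the GC and length correction as well. Under the replicate block S100A4 was called at -0.39 (with the correction, -0.26), CDH1 was called (adjusted p = 0.00299 from edgeR, and 0.0176 with the correction), SNAI2 turned to -0.026, and with the correction SNAI1 was 0.021 and VIM 0.016. The block called 2 EMT genes, 2 other EMT factors, 2 epithelial regulators, 5 epithelial targets, 2 corepressors, 1 turnover gene and 5 marker partners, and with the correction 2, 2, 3, 7, 3, 3 and 9. TWIST1, SNAI3 and SNAI2, with at most 54 reads in any library, had the widest intervals of the 10 genes.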

Other observations

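Among markers of other cell types, 6 genes were tested and VWF, the von Willebrand factor gene of endothelial cells, was the only one called, beside 1.07% of all genes called higher. VWF had 103, 63 and 89 reads with siCTR, against 152, 161 and 155 with siLSD1. It differed by 0.87 on the log2 scale, with an adjusted p of 0.0418 from edgeR. The endothelial gene PECAM1 had 0 to 3 reads per library. CDH2, which encodes N-cadherin, had 742, 710 and 740 reads with siCTR, against 585, 656 and 781 with siLSD1. It differed by -0.12 on the log2 scale, with an adjusted p of 0.709 from edgeR. CGN, which encodes the tight junction protein cingulin, had 355, 180 and 275 reads with siCTR, against 187, 154 and 164 with siLSD1, and with a log2 fold change of -0.68 its adjusted p was 0.151 from edgeR, and 0.0225 with the GC and length correction. CDH2 and CGN were named after their values were seen.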
